A study of Mus musculus with 18 samples.

Results

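Promoters of protein-coding genes that were accessible in every retina library were described from the ATAC-seq peak lists of the series. ATAC-seq inserts adapters into open chromatin, and a peak is a stretch where insertions exceed the local background. Peaks of the 18 lists that shared 1 bp or more were joined, which gave 99792 merged regions. The members were chosen by these peak calls and summit positions: a region was kept when all 18 lists held a peak in it and when the median position of its summit, the point of highest signal, was no more than 1 kb before and 100 bp after a protein-coding transcript start (mm10, GENCODE M21). This left 9828 regions, 39.7% of the 24751 regions called in all 18 lists, at the promoters of 10379 of 21875 protein-coding genes (47.4%). The calls chose these regions, so that their presence in every list and their height against other regions are descriptions and not tests. A promoter without a peak in any 1 list was left out, so the rule selects against promoters that opened or closed in a group. The 24751 regions passed the same filter.

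The libraries came from bulk retina of WT mice and formed 6 groups of 3. Retinas were taken at 3 months and at 18 months of age, on day 2 after intraocular pressure (IOP) had been raised in 1 eye to 30 mmHg for 1 hour, from the IOP eye and from the contralateral eye, which the labels list as its untreated control. The day is that of the labels, and the text of the study gives a later day for the IOP libraries. The other 6 libraries, 3 at each age, came from animals that received no IOP, and are called untreated here. Their replicate numbers follow the labels, whereas the names of the deposited lists exchange numbers 4 and 6 at both ages. The labels tie no library to the drug arm that their shared protocol text mentions, and the extraction text attached to the libraries describes a chromatin immunoprecipitation, whereas the methods of the study describe transposition of fresh nuclei. Nothing in the labels says which libraries shared an animal, so p-values measure the spread between these libraries. Read totals are not in the lists, so the depth is unknown: the lists held 36011 to 66160 peaks. The shortest peak of a list was 79 to 89 bp in the untreated libraries and 114 to 157 bp in the others, and the 18-month-old IOP replicate 3 had the fewest peaks. No pair of lists was identical.

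A promoter is the stretch around a transcription start where general transcription factors and RNA polymerase II assemble. In mammals most promoters of broadly used genes lie in CpG islands, GC-rich DNA that has kept its CpG dinucleotides, and stay free of nucleosomes in most tissues, whether or not transcription is high. Promoters of genes restricted to a cell type are more often poor in CpG and open where their activators are present. The retina is dominated by rod photoreceptors, so an open promoter in bulk tissue is weighted towards those cells. In bulk tissue, fewer cells with an open promoter and less open promoters per cell cannot be told apart.

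The sequences below show both kinds of promoter. Each line gives the 100 bases before the annotated start in the direction of the gene, read from the mm10 genome, with capitals marking matches to the 12 short motifs searched on either strand. Ift122 (intraflagellar transport in cilia, chr6:115853370-115853469, plus strand) shares its region with Mbd4, a DNA repair enzyme, and was the strongest promoter whose 100 bases touched at most 30 annotated exon bases. It holds 2 CCAAT boxes and, both read on the other strand, a GGGCGG box and the ETS core CCGGAA. B3galnt2 (a glycosyltransferase, chr13:13954369-13954468, plus), Paqr3 (a Golgi membrane protein, chr5:97111597-97111696, minus) and Max (the partner of Myc, chr12:76962202-76962301, minus) ranked 24, 26 and 46 of all 9828, and were picked among the 50 strongest because they hold the NRF1 core GCGCATGC, the cyclic AMP response element TGACGTCA and the E-box CACGTG.
Ift122: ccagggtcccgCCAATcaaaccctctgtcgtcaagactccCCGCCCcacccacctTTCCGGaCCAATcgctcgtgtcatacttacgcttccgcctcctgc
B3galnt2: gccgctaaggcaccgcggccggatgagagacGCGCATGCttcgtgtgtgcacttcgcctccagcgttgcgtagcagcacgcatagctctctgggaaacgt
Paqr3: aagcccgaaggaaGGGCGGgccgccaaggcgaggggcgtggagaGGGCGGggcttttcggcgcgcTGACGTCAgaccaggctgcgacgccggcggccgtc
Max: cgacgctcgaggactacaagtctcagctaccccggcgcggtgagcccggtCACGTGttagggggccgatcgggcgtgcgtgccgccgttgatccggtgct
Gnat1 (rod transducin, chr9:107679713-107679812, minus), Pde6b (a subunit of the rod phosphodiesterase, chr5:108388291-108388390, plus) and Rp1 (an outer segment microtubule protein, chr1:4360315-4360414, minus) are shown as rod genes that were also open in every list.
Gnat1: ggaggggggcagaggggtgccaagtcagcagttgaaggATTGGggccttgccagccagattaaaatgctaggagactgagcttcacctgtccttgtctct
Pde6b: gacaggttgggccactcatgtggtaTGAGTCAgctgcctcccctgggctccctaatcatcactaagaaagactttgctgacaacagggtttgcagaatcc
Rp1: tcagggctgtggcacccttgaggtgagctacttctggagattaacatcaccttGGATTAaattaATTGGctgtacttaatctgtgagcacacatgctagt
The first 4 sequences hold 8 to 15 CpG dinucleotides in their 100 bases, whereas the 3 rod sequences hold 0. Capitals in the rod lines mark an AP-1 site TGANTCA in Pde6b. Read on the other strand, they mark a CCAAT box in Gnat1, and in Rp1 the photoreceptor motif TAATCC and a CCAAT box. A match is a run of letters and was not tested as a binding site.

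Most promoter regions were called in every list. Of 12854 merged regions with their summit in a promoter window, 76.5% were called in all 18 lists, and 5.63% in a single list. Of the 86938 other regions, 17.2% were called in all 18 lists and 29.3% in a single list. A further 280 promoter regions (2.18%) were called in 17 lists.

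**Figure D1:**
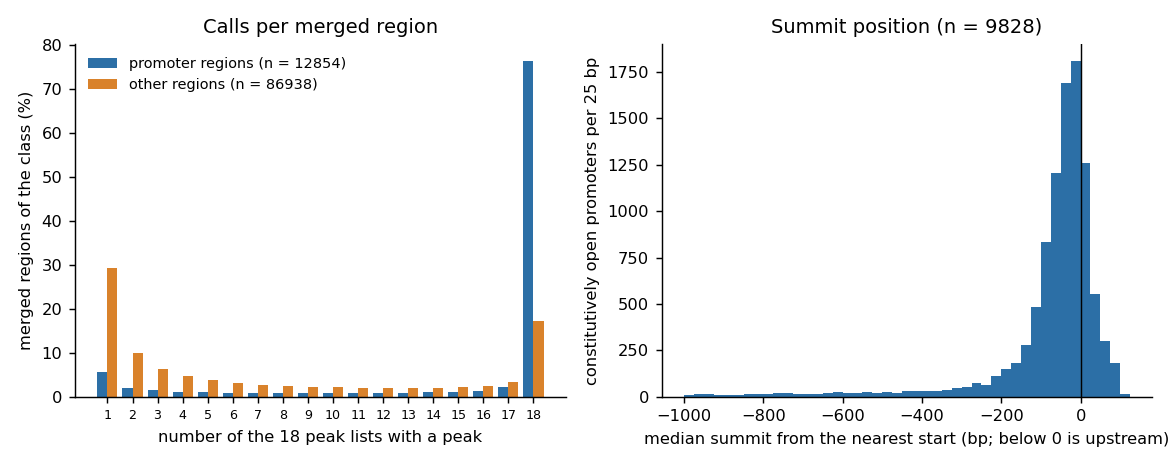
Left, the percentage of merged regions by the number of the 18 lists that called them, for 12854 promoter regions (blue) and 86938 other regions (orange); 76.5% of promoter regions stand at 18. Right, the position of the median summit of the 9828 promoters against the nearest protein-coding start, in bins of 25 bp; most summits lie just upstream.

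The summit of an open promoter lay a median of 36 bp upstream of the nearest start, with an interquartile range from 84 to 3 bp upstream. It was upstream in 76.5% of the promoters and within 100 bp of the start in 79.8%, and 324 (3.30%) lay more than 500 bp upstream. The rule allows 1 kb upstream and only 100 bp downstream, which sets part of the upstream share: 876 further regions of all 18 lists had their summit 101 to 500 bp downstream and were left out. The position was steady between libraries: the distance between the most upstream and most downstream of the 18 summits had a median of 112 bp, and was 100 bp or less in 4378 promoters and above 500 bp in 442. Peaks covered a median of 823.5 bp of a promoter (interquartile range 638.5 to 1038.5 bp). The fold of the signal at the summit over background, as MACS2 gave it, had a median of 11.5 (interquartile range 8.81 to 14.3). Ranked within its own list by −log10 q, the significance of a peak, a median open promoter stood at percentile 88.0, against 63.3 for the 12749 regions called in all 18 lists over 1 kb from any start (distal regions) and 21.8 for promoter regions called in 1 to 17 lists. Of the 9828 promoters, 922 served 2 or more genes and 862 faced genes on both strands. The promoters with genes on both strands were covered over a median of 923.75 bp, against 815 bp for those on a single strand.

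The 10 promoters with the highest mean percentile, 99.8 to 99.9, were those of Vcpip1 (a deubiquitinating enzyme), Ift122 with Mbd4, Atp5e (a subunit of the mitochondrial ATP synthase), Sel1l (degradation of misfolded proteins of the endoplasmic reticulum), Rbm4 (an RNA-binding protein), Prmt5 (an arginine methyltransferase), Ints3 (a subunit of the Integrator complex), Etf1 (termination of translation), Gm3448 with Gm3435, and Kifc1 (a kinesin). Reads of Gm3448 and Gm3435 may be shared with near-identical copies, so their level is uncertain. All 10 were CpG-rich, defined here as GC content above 50% and observed over expected CpG above 0.6 in the window from 250 bases before to 50 after the start. Vcpip1 stayed between 18.4 and 22.2 fold in the 18 libraries. The bases before its start are not printed because all 100 lie in exons of annotated transcripts.

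The 10 weakest promoters, with mean percentiles of 25.5 to 31.4, included those of Fam83f, Ntrk2 (the receptor of brain-derived neurotrophic factor), Npas3 (a neuronal transcription factor), B4galnt3 (a glycosyltransferase), Pcdhgb8 (a clustered protocadherin), Thy1 (a surface protein of ganglion cells), Sertad4, Cdh6 (a cadherin) and Klhl13 (a ubiquitin ligase adaptor). Their median folds ran from 4.37 to 5.85, and 6 of the 10 were CpG-rich. Their covered widths were 284 to 632 bp, and their summits wandered over 276 to 670 bp between libraries, against 44 to 103 bp for the 10 strongest. In its weakest list Fam83f stood at percentile 0.0203, so it only just counted as called.

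The widest promoters were not the strongest. The widest promoters were those of Ppp2r3d (a regulatory subunit of protein phosphatase 2A, 2991 bp), Dnmt3a (a DNA methyltransferase, 2685.5 bp), Rims2 (a scaffold of the synaptic active zone, 2538.5 bp), Ubtf (a factor for ribosomal RNA genes, 2522 bp) and Dyrk2 (a kinase, 2515.5 bp). Their folds at the summit were only 4.14 to 5.16, and all 5 were CpG-rich. The narrowest, at 140.5 to 174 bp, were those of Capns1 (the small calpain subunit), Cep164 (a centriole protein), Cpsf6 (3′ end processing of RNA), Ncan (a brain proteoglycan) and Nat8f6, of which 1 was CpG-rich. Summit positions differed most between libraries in Ubtf (2652 bp), Atxn1 (1835 bp), Trim67 (1658 bp), Slc38a1 (1553 bp) and Pnpla6 (1502 bp), where a list often held several peaks. They differed least in Rps26, a ribosomal protein gene, at 7 bp, and in Zfhx2, 9530077C05Rik, Gfm1 and Rac1, at 9 to 15 bp. The most genes in 1 region was 3, as in the region of Med19, Tmx2 and Gm28635 and in that of Mtcp1, Cmc4 and Brcc3.

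At the edge of the rule, promoter regions called in 17 lists were weaker but overlapped the members. The 280 regions had a median mean percentile of 40.8, and 136 members lay below that value. Of these 280, 101 were missing only from the 18-month-old IOP replicate 3, 53 only from the 3-month-old untreated replicate 5, and 26 only from the 3-month-old untreated replicate 4. The highest of the 280 was Gm10717 (percentile 67.5, missing in the 3-month-old contralateral replicate 1), then Pcdh17 (a protocadherin, 67.5), Zmat4 (63.8) and Tbc1d1 (63.0), the last 3 missing only in that IOP replicate 3. Gnat2, the cone transducin, and Npas2, a clock factor, were also called in 17 lists. On position, 375 further regions of all 18 lists had their summit 101 to 200 bp downstream of the nearest start and were not members, beside 2236 members with a summit 1 to 100 bp downstream. Counting any start that lies inside a region of all 18 lists gave 11321 genes (51.8%). Of these, 1003 have no region with its summit in their promoter window, so for a gene without a member promoter the start itself may still be covered.

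The open promoters shared a CpG-rich sequence. In the window from 250 bases before to 50 after the start, 79.1% of the 10379 genes with an open promoter were CpG-rich, against 39.96% of the 2082 genes whose promoter was called in 1 to 17 lists, 10.48% of the 9397 genes with sequence and no called promoter, and 45.9% of all 21858 genes with sequence. Median GC content was 62.7%, 59.7% and 48.0% in the first 3 classes. For the genes without a call the most upstream start was used, and for the others the start nearest the summit, which sets what the window holds. CpG-rich members were wider than the others, with a median of 872 bp against 647.5 bp, and stood higher in their lists, at percentile 89.5 against 80.8.

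Motifs of several widely used activators were most frequent in open promoters. Each was searched on both strands in the same window, and the shares below are given for genes called in all 18 lists, in 1 to 17 and in none, then for all genes. The Sp1 box GGGCGG was in 71.5%, 51.9% and 18.8%, and in 47.0% of all genes. The ETS core CCGGAA was in 31.2%, 10.7% and 6.61%, and in 18.7% of all. The NRF1 core GCGCATGC was in 6.28%, 1.49% and 1.71%, and in 3.86% of all. The YY1 core AAGATGGC was in 5.31%, 0.624% and 1.26%, and in 3.12% of all. The letters of the Sp1, ETS and NRF1 motifs are rich in C and G, as are the windows. How far base composition sets the share of any motif was not tested.

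The TATA, homeodomain, AP-1 and Crx motifs were less frequent in open promoters than in the rest. The TATA box TATAAA was in 5.47% of genes with an open promoter, 8.07% of those called in 1 to 17 lists and 20.5% of those without a call (12.2% of all). The homeodomain core TAATTA was in 1.87%, 3.12% and 8.88% (5.00% of all), the AP-1 site TGANTCA in 3.67%, 5.96% and 9.99% (6.61% of all), and the Crx motif TAATCC in 5.71%, 6.34% and 8.66% (7.04% of all). The CCAAT box of NFY, at 40.9%, 29.5% and 38.6% (38.8% of all), hardly separated open promoters from the rest. Among the members it went with strength: 32.1% of the 3276 with the lowest percentiles held it, and 54.6% of the 3276 with the highest. The remaining motifs were again most frequent in open promoters: the E-box CACGTG was in 10.9%, 7.20% and 4.81% (7.91% of all), the cyclic AMP response element TGACGTCA in 4.09%, 1.87% and 1.07% (2.58% of all), and the ZNF143 core ACTACAAT in 1.20%, 0.432% and 0.649% (0.892% of all).

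**Figure D2:**
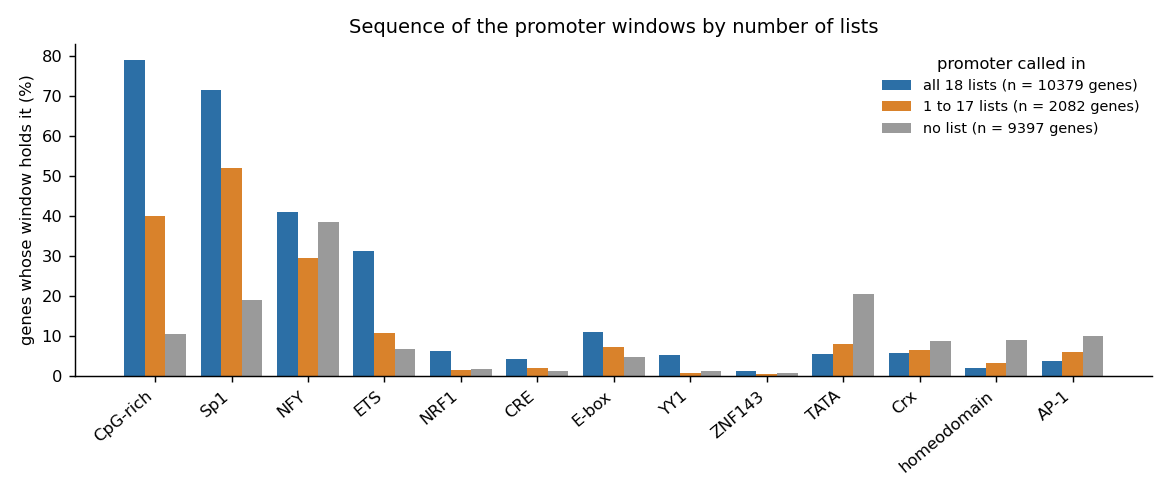
The percentage of genes whose window from 250 bases before to 50 after the start is CpG-rich or holds a motif, for genes with a promoter called in all 18 lists (blue, 10379 genes), in 1 to 17 lists (orange, 2082) or in none (grey, 9397). CpG-rich windows and Sp1 and ETS matches fall from blue to grey, and TATA matches rise from 5.47% to 20.5%.

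In each of 16 lists of basic cell machinery the share of genes with an open promoter was above that of all protein-coding genes, with 423 of 480 genes in all. The share over all protein-coding genes was 47.4%. It was 19 of 19 for cytosolic tRNA synthetases, 13 of 13 for the Polr2 subunits of RNA polymerase II, and 7 of 7 for the chaperonin that folds actin and tubulin. It was 43 of 46 for Nduf genes of respiratory complex I, 76 of 84 for cytosolic ribosomal proteins, 50 of 55 for translation initiation factors and 27 of 30 for Mediator. Except for the V-ATPase, given below, the other machinery lists gave 68 of 78 for mitochondrial ribosomal proteins, 31 of 39 for the proteasome, 20 of 23 for TFIID and 18 of 21 for nucleoporins. They also gave 10 of 11 for the anaphase-promoting complex, 9 of 10 for the RNA exosome, 9 of 12 for snRNP proteins and 7 of 9 for the SF3 splicing factors. Outside the 16 lists, 309 of 394 Zfp zinc-finger genes had an open promoter. Of the 57 genes of these 16 lists without an open promoter, 32 had their start inside a region of all 18 lists with its summit elsewhere. Some of the others are known as variants of other tissues, and were named after their values were seen. Of the 23 genes of the V-ATPase, the proton pump of acidic vesicles, 16 had an open promoter. The other 7 were Atp6v0a4, Atp6v0d2, Atp6v1b1 and Atp6v1g3, known from kidney or osteoclasts, with Atp6v1fnb, none of which was called in any list, and Atp6v1e2 and Atp6v1c2, called in 4 and 5 lists. Among ribosomal proteins, the testis and muscle variants Rpl10l, Rpl39l and Rpl3l were in no list, as was Rpl35, and among proteasome subunits the testis subunit Psma8 and the thymus subunit Psmb11. In contrast general ribosomal genes such as Rpl12, Rpl39 and Rps23 have their start inside a region of all 18 lists whose summit lies outside the window, as do all 10 of the 78 mitochondrial ribosomal genes without a member.

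Large families that serve other tissues were nearly absent. None of 1143 olfactory receptors, 42 beta-defensins, 22 UDP-glucuronosyltransferases, 22 major urinary proteins or 14 alpha interferons had an open promoter. The exceptions elsewhere were few. Of 331 vomeronasal receptors only Vmn1r4 was counted, through an annotated start in the region of Nt5c3, a nucleotidase, and of 38 taste receptors only Tas1r1, through that of Nol9, a nucleolar protein. Of 110 keratin genes it was Krt10, at 20.0 fold, and of 48 Cyp2 cytochromes Cyp2r1 and Cyp2u1, whose windows were CpG-rich.

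The label of the tissue was checked on markers of its cell types. Of 10 rod genes, 8 had an open promoter, among them Gnat1, Nrl, Nr2e3, Pde6a, Pde6b, Cnga1 and Rp1, and the starts of the other 2, Pde6g and Sag, lay inside regions of all 18 lists. None of the 10 rod genes was CpG-rich. Their folds were low for open promoters: Nr2e3 had a median of 3.47, Gnat1 4.13 (3.45 to 5.10 over the 18 libraries) and Pde6b 7.45. By −log10 q the open rod promoters stood at a median percentile of 74.8, against 88.0 for all open promoters and 63.3 for distal regions. Open promoters were found for 3 of 10 cone genes (Arr3, Pde6c and Thrb), 4 of 10 bipolar genes (among them Prkca, Otx2 and Isl1), 4 of 9 Müller glia genes (Glul, Sox9, Vim and Kcnj10), 2 of 10 amacrine genes (Pax6 and Calb2), 2 of 5 horizontal cell genes (Onecut1 and Onecut2) and 2 of 10 ganglion cell genes (Pou4f1 and Thy1).

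Few markers of rarer cells or of cells outside the neural retina had an open promoter. Open promoters were found for 1 of 8 microglial genes, 1 of 6 endothelial genes (Kdr, a receptor of vascular endothelial growth factor, at 5.78 fold) and 1 of 6 genes of the pigment epithelium (Mitf, whose many starts serve other cells too). None of the 5 lens, 4 erythroid, 4 liver, 4 T cell, 3 skin, 3 pericyte or 2 astrocyte markers had one, though Cd8a was called in 14 lists and the pericyte gene Pdgfrb in 9.

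Most core clock and immediate-early genes had an open promoter. Of 15 core clock genes, 13 were members, at a median percentile of 90.7, and of 18 immediate-early genes, which respond within minutes to activity, 15 were. Fos stood at 5.27 fold (4.36 to 7.25 over the libraries). Egr3 was called in 6 lists, and the starts of Fosl1 and Ier3 lay inside regions of all 18 lists. None of the 5 genes that the study itself showed as examples was a member. The study chose them for higher RNA in aged retina after IOP and viewed accessibility over the locus, not only in a promoter window. Fgf2, a growth factor, was called in 17 lists and Mmp14, a matrix metalloproteinase, in 1. Bcl3, Cdkn1a and Gdf15 had no region with its summit in the window, though the start of Cdkn1a lay inside a region of all 18.

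**Figure D3:**
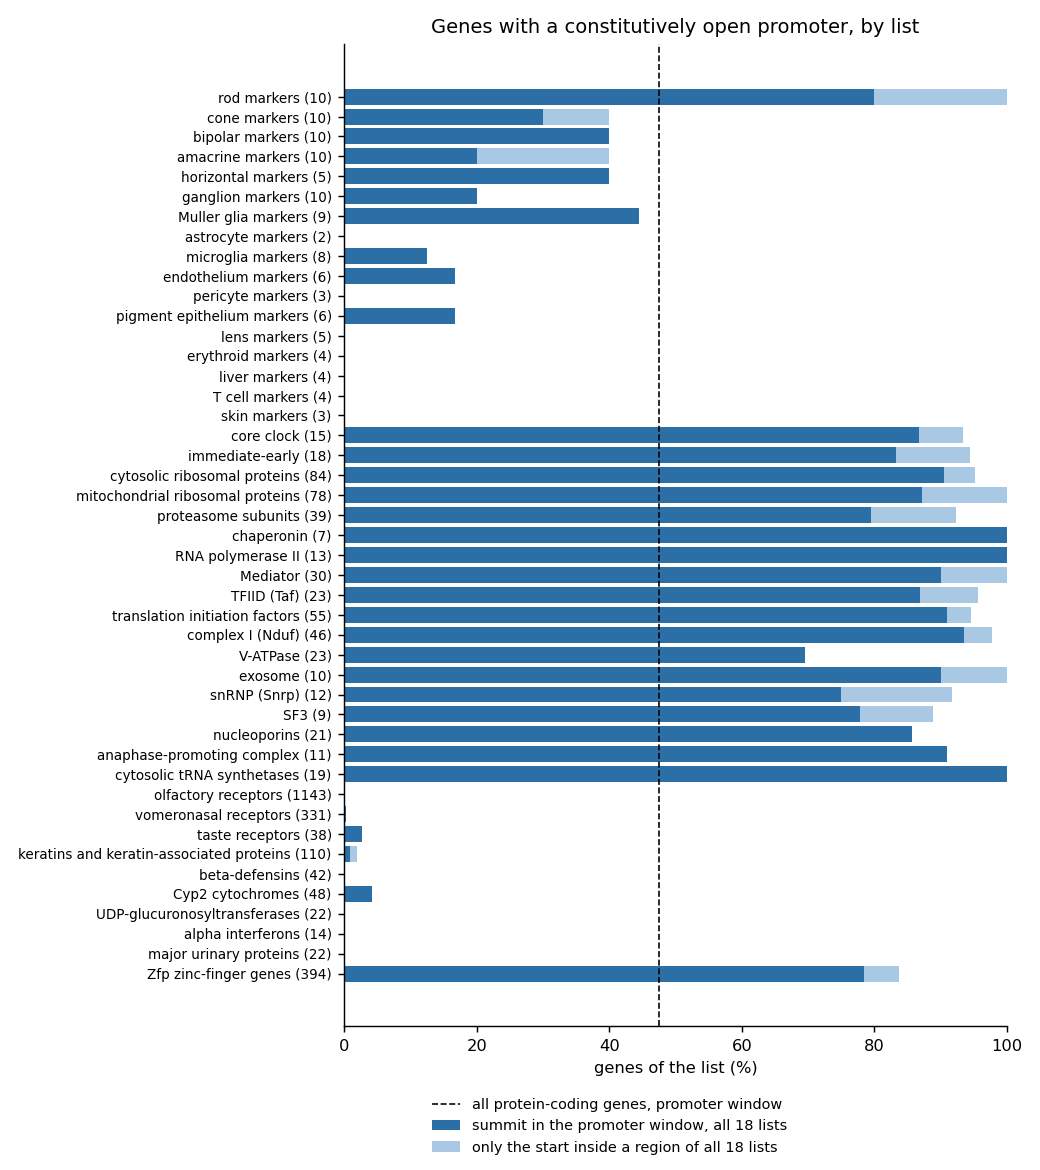
For each gene list (number of annotated genes in brackets), the percentage with an open promoter by the rule (dark blue) and the further percentage whose start lies inside a region of all 18 lists with its summit elsewhere (light blue); the dashed line marks 47.4%, the share of all protein-coding genes. Machinery lists stand at 69.6% or more, and olfactory receptors at 0.

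The share of genes with an open promoter differed between chromosomes. The autosomes ranged from 39.1% of protein-coding genes with an open promoter on chromosome 7 to 58.5% on chromosome 12, and the X chromosome held 32.9%. The 296 X-linked promoters stood at a median fold of 13.8, against 10.8 to 11.9 on the autosomes, but at a lower median percentile, 84.1 against 85.9 to 89.2. On the Y chromosome 4 of 183 genes had an open promoter, Uty, Eif2s3y, Ddx3y and Gm47283, so that every library held peaks at Y-linked promoters. Uty reached a median of 18.5 fold.

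The first comparison asked whether age changed accessibility at these promoters. Here and in the later comparisons only regions called in all 18 lists entered the fit. Promoters lost or gained in a group could therefore not be counted, and 0 calls do not show that promoters in general were stable. Of the 9828 promoters, 0 differed between the 6 control libraries of 18-month-old and the 6 of 3-month-old animals (limma on quantile-normalized log2 fold, Benjamini-Hochberg adjusted p below 0.05), and the smallest adjusted p of a member was 0.103. Over all 24751 regions in the fit, 5 (0.0202%) were called, all higher with age and none a member. At an unadjusted p below 0.05, 140 promoters (1.42%) were higher and 334 (3.40%) lower, beside 4.27% higher and 2.53% lower among all regions; with median centring the counts were 71 and 427. The lower count was 641 without the 3-month-old contralateral replicate 2, 602 without the untreated replicate 6 and 216 without the contralateral replicate 3 of that age. The median log2 difference was −0.05 over the members (SD 0.10 across promoters), −0.01 over all regions and 0.03 over distal regions. A difference of 0.5 or less on the log2 scale was fitted for 99.8% of the promoters.

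The promoters with the smallest p for age are given as values that did not pass. Mef2c, a transcription factor of neurons and muscle, had folds of 5.68, 7.33 and 10.8 (lowest, median and highest) in the 3-month-old controls and 8.75, 12.2 and 14.7 in the 18-month-old controls. Its log2 difference was 0.54 ± 0.10 (SE, adjusted p = 0.103, limma). The groups overlapped through the untreated replicates 4 and 6 of the 3-month-old animals, at 8.86 and 10.8, and the contralateral replicate 2 of the 18-month-old animals, at 8.75.

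Kazn, a protein of cell junctions, shows how the kinds of control differed. In untreated retinas its folds were 11.95, 12.2 and 13.9 at 3 months and 5.37, 5.81 and 6.17 at 18 months. In contralateral retinas they were 7.71, 9.90 and 5.60 at 3 months and 8.31, 6.50 and 7.16 at 18 months. The groups were apart in the untreated and mixed in the contralateral libraries, whether the age difference itself differed between them was not tested, and the pooled log2 difference was −0.70 ± 0.15 (adjusted p = 0.180, limma). Gm14418 (0.80 ± 0.15, adjusted p = 0.103), Ly75 (an endocytic receptor of dendritic cells, 0.40 ± 0.09, adjusted p = 0.180) and Kif19a (a kinesin of cilia, −0.47 ± 0.11, adjusted p = 0.199) also stood among the smallest p in the limma fit. With the kind of control as a covariate 11 promoters passed (0.112%), 8 higher and 3 lower with age, against 80 of all 24751 regions (0.323%). The promoters that passed included Mef2c, Gm14418 and Ly75 among the higher and Kazn among the lower. With the untreated libraries alone 4 passed (Gm14418, Nek5, Kazn and Dennd2a), 0.0407% against 0.0606% of all regions. With the contralateral libraries alone it was 0, as over all regions. Nek5 and Dennd2a were named after their values were seen.

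The second comparison set the IOP eye against the contralateral eye at 3 months, 3 libraries each. Of the 9828 promoters 0 were called (0 of all 24751 regions, 0%), with 87 (0.885%) higher and 32 (0.326%) lower at an unadjusted p below 0.05, against 1.33% and 1.4% of all regions, and the smallest adjusted p was 1.00. Without the contralateral replicate 2 the counts were 292 and 182, and without any other library 57 to 85 and 17 to 61. The median log2 difference of the members was 0.02 (SD 0.09). The smallest p values belonged to Pigk (GPI anchor synthesis), Kcng4 (a potassium channel subunit) and Zic2 (a transcription factor) with higher, and R3hcc1l, Npff (a neuropeptide) and Hoxa4 (a homeobox factor) with lower fitted values. R3hcc1l had folds of 14.7, 15.8 and 13.2 in contralateral and 12.5, 9.88 and 8.53 in IOP libraries, without overlap, and a log2 difference of −0.47 ± 0.11. Kcng4 had 5.50, 7.36 and 3.91 in contralateral and 8.99, 7.61 and 8.48 in IOP libraries, also without overlap (0.69 ± 0.17). None of the 6 passed.

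At 18 months the same comparison again called 0 of the 9828 promoters, with 4 called among all 24751 regions (0.0162%; 0.0121% higher and 0.00404% lower). At an unadjusted p below 0.05, 570 promoters (5.80%) were higher and 276 (2.81%) lower, whereas among all regions lower values were the more frequent, 7.2% against 4.77% higher. With median centring the counts were 1003 and 149, and by the rank of −log10 q 443 and 441, so this split depends on the scale. It depends on single libraries too: 1240 promoters were higher without the contralateral replicate 2, and the counts were 158 and 150 without replicate 1, 156 and 144 without replicate 3, 717 and 463 without the IOP replicate 1 and 154 and 162 without the IOP replicate 3. With 50% of the region covered they were 158 and 233 of 6254 promoters. The median log2 difference was 0.08 over the members (SD 0.14), 0.02 over all regions and −0.04 over distal regions. It rose with GC content of the window, from 0.03 in the 3286 promoters with the lowest GC to 0.08 in the middle 3382 and 0.12 in the 3160 with the highest.

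The promoter nearest to passing was that of Pkib, an inhibitor of protein kinase A. Its folds were 12.4, 10.7 and 12.2 in the 18-month-old contralateral and 6.70, 5.38 and 4.58 in the IOP libraries. The groups did not overlap, and the log2 difference was −0.89 ± 0.12 (adjusted p = 0.0556, limma). With median centring (adjusted p = 0.0344) and without the IOP replicate 1 (adjusted p = 0.0338) it passed. At 3 months its contralateral libraries were spread over 4.37, 15.8 and 5.08, and its IOP libraries were at 11.4, 8.29 and 7.09, and untreated libraries of 18-month-old animals stood at 9.13, 6.86 and 6.68.

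The other promoters named at 18 months did not pass either. Shc4, an adaptor of receptor tyrosine kinases, had 6.56, 5.63 and 5.79 in contralateral and 9.88, 11.4 and 7.06 in IOP libraries (log2 difference 0.86 ± 0.15, adjusted p = 0.101, limma). Its untreated libraries of the same age were at 11.4, 10.4 and 10.7, above 2 of the 3 IOP values. Kcng4 was fitted higher at this age too, at 7.55, 5.61 and 8.11 in contralateral and 10.2, 9.77 and 7.67 in IOP libraries, which overlapped (0.62 ± 0.12, adjusted p = 0.142, limma). The libraries of the 2 ages are separate. Lmo4 (a transcription cofactor, 0.52 ± 0.11) was fitted higher, and Ska1 (a kinetochore protein, −0.47 ± 0.09) and Tjap1 (a protein of tight junctions and the Golgi, −0.48 ± 0.10) lower, with adjusted p of 0.163, 0.146 and 0.163 in limma.

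The test of the difference itself, the IOP effect at 18 months minus that at 3 months, called 0 of 9828 promoters (0% of all 24751 regions) and its smallest adjusted p was 0.922. At an unadjusted p below 0.05, 79 promoters (0.804%) had a higher and 146 (1.49%) a lower difference, against 1.12% and 2.9% of all regions. The counts were 862 and 353 without the 3-month-old contralateral replicate 2, 183 and 253 without the 18-month-old contralateral replicate 2, 133 and 271 without the 18-month-old IOP replicate 1, and between 45 and 90 higher and 87 and 164 lower without any other library. With median centring they were 88 and 88. The smallest p values were those of Bicc1 (an RNA-binding protein, −0.75 ± 0.16), 2610021A01Rik (−0.45 ± 0.11) and Usp40 (a deubiquitinating enzyme, −0.50 ± 0.13) on one side, and of Shc4 (0.80 ± 0.23), Fhdc1 (an actin regulator, 0.73 ± 0.22) and Lysmd4 (0.42 ± 0.13) on the other. Bicc1 had folds of 7.61, 11.4 and 8.59 in contralateral and 13.003, 10.7 and 9.33 in IOP libraries at 3 months, and of 12.9, 8.99 and 11.9 and then 8.84, 7.27 and 5.63 at 18 months. Without the 3-month-old contralateral replicate 2, where Pkib stood at 15.8, 1 promoter passed, that of Pkib (−1.73 ± 0.20, adjusted p = 0.0159, limma); with it the difference for Pkib was −1.25 ± 0.39.

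The genes of the lists gave no calls in these 4 comparisons. Among the 15 member regions of core clock genes the log2 differences between IOP and contralateral retinas at 18 months ran from 0.05 to 0.38 with a median of 0.18, against 0.08 over all members and 0.02 over all regions. The 9 regions of rod genes had the same median, 0.18 (−0.12 to 0.44). The 77 regions of cytosolic ribosomal proteins had a median of 0.07 (−0.27 to 0.36). The 16 of immediate-early genes had a median of 0.12 (−0.24 to 0.27).

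Untreated and contralateral libraries differed at many promoters. Between the 6 untreated and the 6 contralateral libraries 2459 promoters were called (25.0%), 810 higher and 1649 lower in untreated retina, against 31% of all 24751 regions, 16.4% higher and 14.6% lower. At an unadjusted p below 0.05 it was 12.3% higher and 24.6% lower, against 21.8% and 21% of all regions. With median centring the called split was 467 higher and 2199 lower, and the split of all regions in that setting is not given here. This comparison was added after the data were seen. The untreated libraries came from other animals, carry replicate numbers 4 to 6 and have the shortest peaks, so animal, handling and library preparation cannot be told apart. Within age the counts were 677 promoters at 3 months and 932 at 18 months, again without the counts over all regions. Most differences were small: 97.9% of all promoters were within 0.5 on the log2 scale, and 3 exceeded 1.

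The promoters with the smallest p belonged to genes of diverse function. Adam23, a neuronal adhesion protein, had folds of 4.83, 5.24 and 7.71 (lowest, median and highest) in untreated and 7.80, 8.96 and 11.9 in contralateral libraries, without overlap (log2 difference −1.06 ± 0.11, adjusted p = 2.06e-05, limma). Tcte3, a dynein light chain, had 5.81, 9.25 and 11.4 against 14.3, 17.05 and 21.6 (−1.30 ± 0.14). Gm3417 lies near Tcte3 on chromosome 17 among gene copies, which makes both uncertain. On the higher side stood Wdr63 (a dynein component of cilia, 20.4, 22.5 and 23.6 in untreated against 12.1, 14.2 and 16.5, a log2 difference of 0.44 ± 0.05), Zfp354c (a zinc-finger repressor, 0.55 ± 0.06), Nfasc (neurofascin of axons, 0.88 ± 0.10), Kansl1 (histone acetylation, 0.44 ± 0.05), Slc37a3 (0.45 ± 0.06), Smyd5 (0.46 ± 0.06), Extl1 (0.68 ± 0.09), Chst3 (0.68 ± 0.09), Lbx1 (0.73 ± 0.10) and Eif3j2 (0.76 ± 0.10). The others lower in untreated retina were Plcb1 (a phospholipase of receptor signalling, −0.79 ± 0.09), Chst10 (−0.65 ± 0.08), Pde4dip (−0.76 ± 0.09), Fbxo42 (−0.48 ± 0.06), Spock1 (−0.87 ± 0.11), Wdr18 (−0.42 ± 0.05) and Gstm7 (−0.79 ± 0.10).

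By list, on the quantile-normalized scale, 14 of the 43 promoters of complex I were called lower and 1 higher, beside 1649 lower and 810 higher of all 9828. The counts were 15 lower and 4 higher of 77 for cytosolic ribosomal proteins, 12 and 3 of 50 for initiation factors, 13 and 8 of 68 for mitochondrial ribosomal proteins, 7 and 1 of 32 for the proteasome, and 40 and 39 of 315 for Zfp genes. More higher than lower calls were counted for RNA polymerase II with 0 lower and 2 higher of 13, TFIID with 1 and 3 of 21, and rod genes with 0 and 2 of 9. These calls are few. The median log2 difference was −0.0077 for RNA polymerase II, −0.0429 for TFIID and 0.0632 for rod genes. It was −0.0468 over all members and −0.0047 over all regions. Core clock and immediate-early genes gave 0 calls in 15 and 16 regions. GC content moved with the difference: the median was −0.01 in the 3286 promoters with the lowest GC, with 452 called higher and 462 lower, and −0.08 in the 3160 with the highest, with 114 higher and 605 lower. The part of GC content in the result was not tested.

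**Figure D4:**
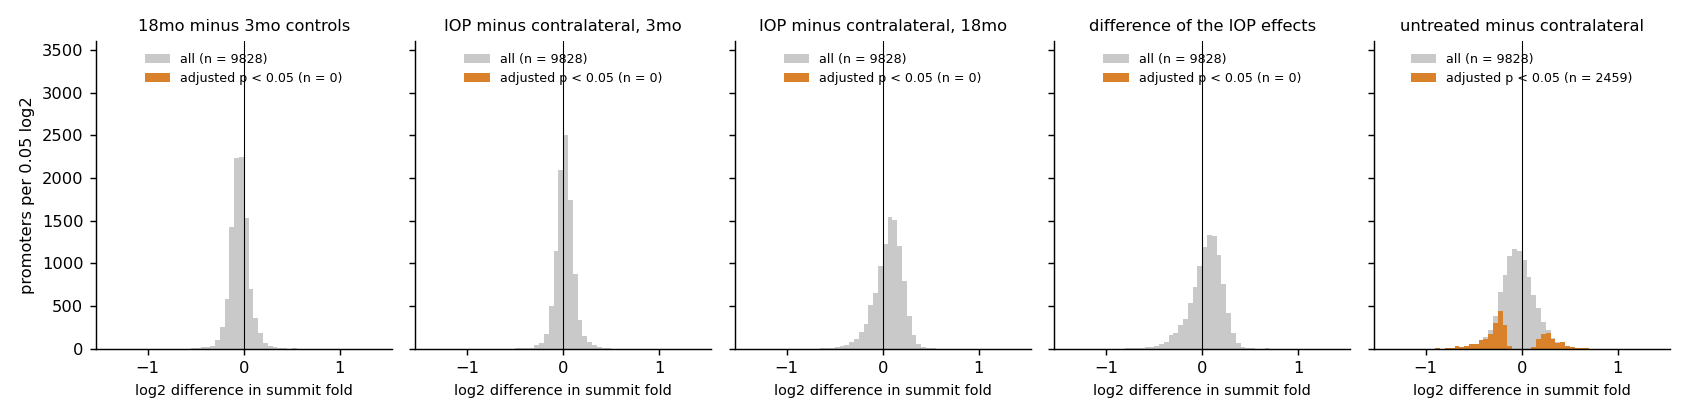
Number of the 9828 promoters by log2 difference in quantile-normalized summit fold, in bins of 0.05, for the 5 comparisons named above each panel; grey is all promoters and orange those with limma adjusted p below 0.05. No orange shows in the first 4 panels, and 2459 promoters are orange for untreated minus contralateral.

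Covered width gave 1 value per library that the rule had not used. The median width of the open promoters was 867, 894 and 884 bp in the 3-month-old contralateral, 863, 912 and 911 bp in the 3-month-old IOP, 854, 923.5 and 844 bp in the 18-month-old contralateral and 803, 900 and 843 bp in the 18-month-old IOP libraries. In untreated libraries it was 630, 636 and 699 bp at 3 months and 731, 723 and 734.5 bp at 18 months. Every untreated library lay below every other library, and against the contralateral libraries the mean difference was −185.5 bp (p = 0.00216, two-sided exact permutation test, 6 against 6, the smallest that this design allows). Within age it was −227 bp at 3 months and −144 bp at 18 months, each without overlap (exact p = 0.1, the smallest possible for 3 against 3). Peaks in the untreated libraries were also broken up: 21.8 to 29.3% of the promoters held more than 1 peak in a library, against 3.45 to 8.97% in the others. How far the shorter peaks of these lists set the width was not tested.

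Age and IOP did not separate the widths. The 18-month-old controls were wider by 33.3 bp on average, 802 ± 83.7 bp against 768 ± 127 bp (SD, n = 6 each; exact permutation p = 0.595, adjusted p = 0.720 over 6 tests). The sign turned in contralateral libraries alone (−7.83 bp, exact p = 0.800), whereas untreated libraries alone gave 74.5 bp without overlap (exact p = 0.1, the smallest possible). IOP changed the mean by 13.7 bp at 3 months (exact permutation p = 0.6) and by −25.2 bp at 18 months (exact permutation p = 0.500), both with an adjusted p of 0.720 in the exact permutation test.

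The level of promoters relative to distal regions was compared within each library as the median log2 fold of the 9828 promoters minus that of the 12749 distal regions. It was positive in all 18 libraries. In 18-month-old retina it was 0.45, 0.50 and 0.46 in contralateral and 0.67, 0.56 and 0.72 in IOP libraries, so every IOP library lay above every contralateral one. The mean difference was 0.18 (exact permutation p = 0.1, the smallest that 3 against 3 allows, adjusted p = 0.300). With 50% of the region covered it was 0.0552 and the groups overlapped (exact permutation p = 0.300). At 3 months the contralateral libraries were spread over 0.76, 0.45 and 0.69, with IOP libraries at 0.64, 0.67 and 0.69, a difference of 0.03 (exact permutation p = 0.900). Between the ages the controls differed by −0.12, 0.44 ± 0.04 at 18 months against 0.57 ± 0.15 at 3 months (SD, n = 6 each; exact permutation p = 0.0823, adjusted p = 0.300). Without the 3-month-old untreated replicate 6, at 0.36, the difference was −0.16 (exact permutation p = 0.0173). The p was 0.0563 to 0.165 when any of the other 11 libraries was left out, and with 50% cover the difference was −0.0548 (exact permutation p = 0.424). Among the same libraries the number of peaks moved with this value: the IOP libraries at 18 months held 36011 to 48723 peaks and the contralateral ones 51166 to 60755, and the 3-month-old contralateral libraries with 39202, 66160 and 41499 peaks gave 0.76, 0.45 and 0.69. The part of peak number in the difference was not tested.

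**Figure D5:**
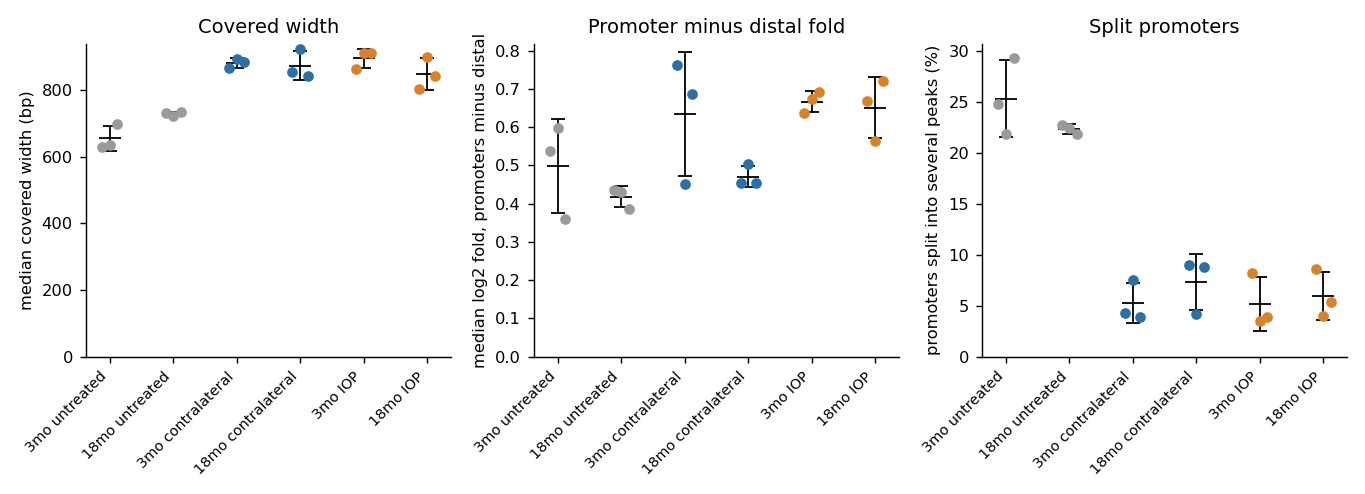
One point per library (3 per group; black bars give mean and SD): the median covered width of the open promoters in bp, the median log2 fold of promoters minus distal regions, and the percentage of promoters split into several peaks. Untreated libraries (grey) lie below all others in width, and the 18-month-old IOP libraries (orange) lie above the 18-month-old contralateral ones (blue) in the second panel, whereas the groups overlapped with 50% of the region covered.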

How the data were processed

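Peak lists of 18 retina ATAC-seq libraries, 6 groups of 3, were analysed. Per the labels and the study's methods, the authors aligned reads to mm10 (STAR 2.7.8a is among the tools named), called peaks in each library with MACS2, and used HOMER, edgeR and bedtools 2.29.2; which role each tool had for these lists is given only in part. Each deposited list gives per peak a score, the fold (ratio) of the signal at the summit over the local background, a −log10 p and a −log10 q, and the summit offset. Replicates were not pooled. Read counts were not used here, so the count test of the study was replaced by limma.

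Each library's value in a region was its peak with the highest −log10 q. Log2 folds over the 24751 regions of all 18 lists were quantile-normalized and fitted with limma 3.58.1 (trend, R 4.3.3). For 3 against 3 or 6 against 6 libraries, 1 value per library was compared by a two-sided exact permutation test, adjusted by Benjamini-Hochberg over 6 tests. Starts came from the basic set of GENCODE M21 and sequence from the mm10 genome. The scripts were tested on simulated data with the means and residual spread of these regions. A log2 change of 0.5 was called in 66% of changed regions for age, 10% for IOP at 3 months and 16% at 18 months. For the difference between ages it was 3%. A change of 1 was called in 96%, 66%, 75% and 61%, in the same order. Thus 0 calls do not exclude changes of these sizes. No per-sample column of another study was present. The alternatives were a −log10 q of at least 5, a cover of 50% of the region, median centring, rank of −log10 q, the replicate block, the kind of control, and leaving out each library.

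The members and lists were chosen with earlier results of these data known. Named were the 10 highest and 10 lowest promoters by mean percentile of −log10 q, the 5 widest and narrowest, the 5 with most genes, the 5 with the largest and smallest summit range, in each comparison up to 10 per direction that passed or, if none, the 3 with the smallest p, up to 4 genes of each list, and the 5 genes the study chose. Larger families and cell type lists name further genes where few were missing; these were chosen after their values were seen. The precision rests on the number of libraries, since read depth is not in the lists. Results for a few genes that meet these rules are not reported here.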

Additional observations from a re-analysis of the deposited data

Results flagged for a closer look

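The promoter of Gm14418 was singled out because 1 library lay far from the rest of its group. Its summit fold in the 18-month-old controls was 8.04 in the contralateral replicate 2, against a median of 15.6 and a highest value of 17.5. The gap to the nearest library was 0.712 of the range of the 6 libraries, above Dixon's 95% critical value of 0.625. Over the 16 such tests run, chance alone would be expected to mark about 1 in 20 groups. Without this library the age difference of Gm14418 was 0.91 on the log2 scale (adjusted p = 0.0335, limma), against 0.80 with it (adjusted p = 0.103, limma).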

How the results depend on the processing

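Read depth is not in the lists, so counting error could not be given, and 3 libraries a group limit the exact tests. The number of member promoters was 6254 when a list had to cover 50% of the region, against 9828. For age, 15 promoters passed by rank of −log10 q (0.153%, against 0.166% of all regions) and 1 with 50% cover (Myo10, 0.0160% against 0.0233%). With the kind of control as a covariate 11 passed (0.112% against 0.323%), and in untreated controls alone 4 (0.0407% against 0.0606%). Leaving out 1 library gave 0 to 2 for age. It was 1 (Gng12, 0.010% against 0.016% of all regions) without the 18-month-old contralateral replicate 1. Without replicate 2 it was 2 (Gm14418 and Tenm3, 0.020% against 0.032%). For IOP at 18 months, 1 passed with median centring (Pkib), 4 by rank (Kcng4, Socs3, Shc4 and 2610021A01Rik) and 0 to 1 when a library was left out. For IOP at 3 months it was 0 to 0, and for the difference between ages 0 to 1. Untreated against contralateral gave 677 at 3 months alone, 932 at 18 months alone and 2018 to 2447 when a library was left out, against 2459. The cause of these changes was not tested, beyond the smaller numbers of libraries. Shares of all regions are not given here for the alternatives outside the age comparison, so those counts are not a result about promoters. In the main fits 0.0162% of all regions passed for IOP at 18 months and 0% for the difference between ages. For untreated against contralateral it was 31%.

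With the replicate block, the pairing by replicate number, age gave 1 call (2210418O10Rik, 0.0102% against 0.0889% of all regions). IOP gave 0 calls at 3 months and 0 at 18 months. Whether equal numbers mark the eyes of 1 animal is not in the labels. Same-numbered contralateral and IOP libraries had correlations of their deviations from the group means of −0.312, −0.239 and 0.199 at 3 months. At 18 months they were 0.356, 0.212 and −0.155. These values cannot decide the pairing, because deviations from a mean of 3 libraries are tied to one another. No block was fitted for the difference between ages.

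The level of promoters minus distal regions ranged, when a library was left out, from −0.163 to −0.0829 for age, from −0.058 to 0.0971 for IOP at 3 months, where it turned negative without the contralateral replicate 2, from 0.146 to 0.224 for IOP at 18 months and from −0.122 to −0.052 for untreated against contralateral. With no library left out, untreated against contralateral gave −0.094 with overlapping groups (exact permutation p = 0.197). It was −0.124 with a −log10 q of at least 5 (exact permutation p = 0.0736) and −0.188 with 50% cover (exact permutation p = 0.00216). With 50% cover IOP at 18 months was 0.0552 with overlapping groups (exact permutation p = 0.300). Width ranged from 5.67 to 58.5 bp for age (−7.83 bp in contralateral controls alone), from 5.33 to 29.8 bp and from −50.8 to −0.333 bp for IOP at 3 and 18 months, and from −194 to −173 bp for untreated against contralateral, which was −227 bp at 3 months and −144 bp at 18 months alone. Of 686 values of named promoters under the alternatives, 669 kept their side of the threshold, 17 passed it where the reported value had not, and 0 changed direction. Of the 686, 364 belong to untreated against contralateral. In the other comparisons keeping the side means staying short of the threshold. The promoters were named for the smallest p in the same libraries, so a kept direction is in part set by that choice.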
